A study of Homo sapiens with 8 samples.

Results

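The nuclear pore complex is the channel through which proteins and RNA pass between nucleus and cytoplasm. Its nucleoporins (NUP proteins) build a scaffold from the Y complex and the inner ring, a central channel lined with phenylalanine-glycine repeats, a cytoplasmic side, a nuclear basket and a membrane ring. Transport receptors of the importin, transportin and exportin families carry cargo through it, with the direction set by the small GTPase RAN. The genes described here were the 47 protein-coding genes, of 20033 on the nuclear chromosomes, whose symbols begin with NUP, XPO, IPO, KPNA, KPNB or TNPO followed by a digit (or XPOT). They comprised 23 NUP genes and 24 transport receptor genes. The symbol rule uses no measured value, but the genes were chosen with earlier results of these data known.

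PHF20 and PHF20L1 are related methyl-lysine readers, each found in a nonspecific lethal (NSL) complex with the acetyltransferase KAT8. Their chromatin binding was mapped by ChIP-Seq with an HA antibody in U2OS, a human osteosarcoma line, in cells ectopically expressing HA-tagged protein, so binding of the endogenous proteins was not measured. The groups were PHF20 ChIP (2 libraries, N-terminal tag) with 1 input, and PHF20L1 ChIP (3 libraries, of which 1 was tagged N-terminally and 2 C-terminally) with 2 inputs. The values are the positions on hg38 of the authors' final peaks, 4147 for PHF20 and 723 for PHF20L1, each called in the replicate with the best signal and kept where it overlapped peaks of the other replicates. Positions and widths are thus those of 1 replicate per protein. Without heights, scores or replicate values, no spread between libraries could be given and no test between samples could be made, so every count below is a description. A gene was called bound when a peak overlapped the region between 1000 bp before and 500 bp after the transcription start site (TSS) of any of its transcripts in GENCODE release 44. A gene without a peak may still have binding below the thresholds of the authors.

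PHF20 peaks were found at the promoters of 25 of the 47 genes (53.2%), and PHF20L1 peaks at 6 of them (12.8%), each of which also had a PHF20 peak. Of all protein-coding genes, 20.7% were bound by PHF20, 3.82% by PHF20L1 and 3.73% by both. Among all PHF20-bound coding genes 18.0% also had a PHF20L1 peak, and among those of the set 24.0%. The genes with both peaks were NUP107 and NUP133 of the Y complex, NUP155 of the inner ring, NUP214 of the cytoplasmic side, and the receptors IPO11, an importin for ubiquitin-conjugating enzymes, and TNPO3, a transportin for serine/arginine-rich splicing factors. A further 19 genes had a PHF20 peak alone, and 22 had neither. Promoter sequences of the 6 genes with both peaks are given so that the DNA under the peaks can be read. With them are those of NUP37, which had the widest PHF20 peak without a PHF20L1 peak, and of KPNA3, the gene without a peak whose promoter was richest in CpG. They run from 250 bases before to 50 bases after the start, 5′ to 3′ on the gene's strand, and come from RefSeq on GRCh38.p14, where 41 of the 47 genes had an entry. Capitals mark letters of 6 factor motifs that are described further on, and a sequence without capitals held none of them.
NUP107: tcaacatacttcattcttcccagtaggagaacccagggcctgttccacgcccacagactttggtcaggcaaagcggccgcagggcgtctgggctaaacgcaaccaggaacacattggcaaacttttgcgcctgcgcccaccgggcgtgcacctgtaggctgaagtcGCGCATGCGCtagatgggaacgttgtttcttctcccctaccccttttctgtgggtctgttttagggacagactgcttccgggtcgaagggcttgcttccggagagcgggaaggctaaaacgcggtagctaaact
NUP133: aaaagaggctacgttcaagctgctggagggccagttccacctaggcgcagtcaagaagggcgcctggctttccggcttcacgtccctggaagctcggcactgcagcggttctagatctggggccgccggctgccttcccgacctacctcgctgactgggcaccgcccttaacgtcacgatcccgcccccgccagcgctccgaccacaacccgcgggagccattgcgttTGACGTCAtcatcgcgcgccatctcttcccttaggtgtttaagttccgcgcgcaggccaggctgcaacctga
NUP155: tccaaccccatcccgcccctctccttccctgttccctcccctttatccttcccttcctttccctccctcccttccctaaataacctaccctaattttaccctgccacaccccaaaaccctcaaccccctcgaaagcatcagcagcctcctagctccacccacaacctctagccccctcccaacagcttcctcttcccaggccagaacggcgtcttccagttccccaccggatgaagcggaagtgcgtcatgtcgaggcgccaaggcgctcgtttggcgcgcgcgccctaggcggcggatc
NUP214: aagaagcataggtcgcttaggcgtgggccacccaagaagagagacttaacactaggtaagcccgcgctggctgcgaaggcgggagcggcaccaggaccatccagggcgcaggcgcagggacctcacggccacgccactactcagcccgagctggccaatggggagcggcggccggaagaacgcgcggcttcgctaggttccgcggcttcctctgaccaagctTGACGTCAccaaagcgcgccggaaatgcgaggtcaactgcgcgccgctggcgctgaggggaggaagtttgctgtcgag
IPO11: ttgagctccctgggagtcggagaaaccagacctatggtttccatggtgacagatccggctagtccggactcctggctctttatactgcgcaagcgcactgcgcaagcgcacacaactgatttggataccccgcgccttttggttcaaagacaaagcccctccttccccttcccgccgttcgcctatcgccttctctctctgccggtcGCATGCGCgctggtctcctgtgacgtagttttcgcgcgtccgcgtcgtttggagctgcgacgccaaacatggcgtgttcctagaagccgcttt
TNPO3: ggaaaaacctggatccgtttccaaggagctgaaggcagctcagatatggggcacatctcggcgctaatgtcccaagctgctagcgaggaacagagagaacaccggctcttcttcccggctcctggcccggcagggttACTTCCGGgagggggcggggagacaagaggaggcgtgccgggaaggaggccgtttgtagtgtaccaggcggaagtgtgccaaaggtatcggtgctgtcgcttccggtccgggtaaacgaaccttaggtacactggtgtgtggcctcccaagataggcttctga
NUP37: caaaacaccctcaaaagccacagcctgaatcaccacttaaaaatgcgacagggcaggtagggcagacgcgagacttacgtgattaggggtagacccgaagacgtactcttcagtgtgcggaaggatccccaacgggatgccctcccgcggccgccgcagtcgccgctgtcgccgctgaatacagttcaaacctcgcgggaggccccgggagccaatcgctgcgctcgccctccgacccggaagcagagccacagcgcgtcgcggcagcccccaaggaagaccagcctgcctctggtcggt
KPNA3: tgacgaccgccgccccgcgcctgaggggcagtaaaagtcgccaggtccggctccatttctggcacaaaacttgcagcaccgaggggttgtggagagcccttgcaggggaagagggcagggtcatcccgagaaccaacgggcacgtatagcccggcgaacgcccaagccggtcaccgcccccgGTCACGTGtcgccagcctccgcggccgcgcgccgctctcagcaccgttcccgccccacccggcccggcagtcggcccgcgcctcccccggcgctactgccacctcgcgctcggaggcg

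These sequences lie at chr12:68686728-68687027, plus strand (NUP107), chr1:229508292-229508591, minus strand (NUP133), chr5:37371057-37371356, minus strand (NUP155), chr9:131125336-131125635, plus strand (NUP214), chr5:62412513-62412812, plus strand (IPO11), chr7:129055062-129055361, minus strand (TNPO3), chr12:102120065-102120364, minus strand (NUP37) and chr13:49792633-49792932, minus strand (KPNA3). All 300 bases shown for NUP107, NUP133, NUP155, NUP214, TNPO3 and NUP37 fell inside the PHF20 peak of the gene, as did 206 of those for IPO11. The PHF20L1 peak covered fewer of them, from 49 bases at TNPO3 to 229 at NUP133, and extended past their downstream end.

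**Figure D1:**
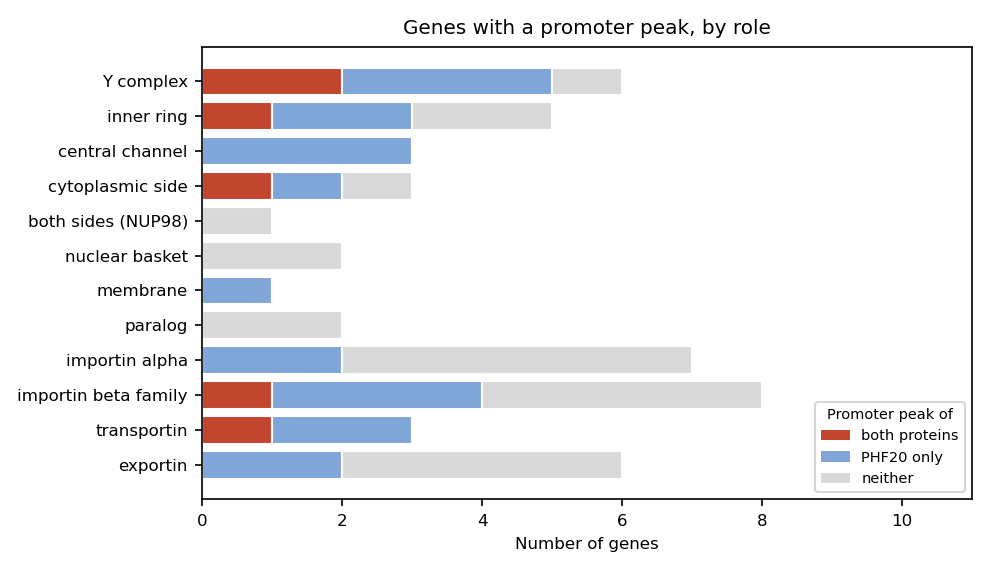
Number of genes (x axis) in each role of the nuclear pore and its transport receptors (rows), coloured by whether the promoter had peaks of both proteins, of PHF20 alone or of neither. Of the Y complex genes that meet the symbol rule, 5 of 6 had a PHF20 peak, and of the importin alpha genes 2 of 7. NUP98, which had no peak and from which the Y complex subunit NUP96 also comes, is in a row of its own.

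In the Y complex, the outer coat of the pore, PHF20 bound 5 of the 6 genes that meet the symbol rule, with NUP98 counted apart. These were NUP37, NUP43, NUP107, NUP133 and NUP160. NUP107 and NUP133 were also bound by PHF20L1, and NUP85 had no peak. In the inner ring, which joins the coat to the channel, PHF20 bound 3 of 5 genes (NUP155, NUP188 and NUP205), and neither NUP35 nor NUP93 had a peak. All 3 genes of the central channel trimer, NUP54, NUP58 and NUP62, had a PHF20 peak without PHF20L1. Over these structures together the count was 11 of 14 genes (78.6%) for PHF20 and 3 of 14 (21.4%) for PHF20L1. It leaves out the unbound NUP98, from which the Y complex subunit NUP96 also comes, and counting it here would lower both shares. Y complex genes with other symbols, such as SEC13 (bound by PHF20) and SEH1L and AHCTF1 (unbound), are also left out and are given further on. Among the other NUP genes, NUP98 included, the corresponding counts were 3 and 1 of 9. NUP42 and NUP214, which act in messenger RNA export on the cytoplasmic side, and NUP210, a membrane glycoprotein of the pore, were bound. NUP88, NUP98 (the precursor of both NUP98 and the Y complex subunit NUP96), the basket genes NUP50 and NUP153, and the paralogs NUP62CL and NUP210L were not. These roles are small, the counts depend on how genes are grouped, and the difference between them was not tested.

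Among the transport receptors, PHF20 bound 11 of 24 genes (45.8%) and PHF20L1 bound 2 (8.33%). Of the 7 importin alpha genes, the adaptors that read classical nuclear localisation signals, KPNA1 and KPNA2 were bound. In the importin beta family, 4 of 8 genes were bound: KPNB1, the carrier that pairs with importin alpha, IPO4, IPO8 and IPO11. All 3 transportins had a PHF20 peak. Of the 6 exportins, XPO4, which exports the translation factor EIF5A, and XPOT, the tRNA exporter, were bound, whereas XPO1, the receptor for leucine-rich export signals, XPO5, XPO6 and XPO7 were not.

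Promoter type differs between these genes and the average gene, so further backgrounds were computed. A promoter was taken as CpG-rich at a GC content of at least 50% and a CpG observed/expected ratio of at least 0.6 within 500 bp on either side of the canonical TSS, the start of the transcript that the annotation marks as representative. By this definition 42 of the 47 genes (89.4%) were CpG-rich, against 64.8% of all protein-coding genes. PHF20 bound 23 of these 42 (54.8%) and PHF20L1 bound 6 (14.3%), beside 28.9% and 5.24% of all CpG-rich genes. The genes described here also had more annotated starts, with a median of 10 distinct TSSs against 5 over all genes, which gives a peak more windows to overlap. Of all genes with 10 or more TSSs, 30.1% were bound by PHF20 and 5.76% by PHF20L1. Among the members of the set, 17 of 26 with 10 or more TSSs (65.4%) and 8 of 21 with fewer (38.1%) were bound by PHF20. Expression in U2OS cells was not analysed here, and its part in these counts was not tested.

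Within the set, CpG content was similar in bound and unbound genes. The median CpG observed/expected ratio was 0.792 over the 25 PHF20-bound genes (range 0.483 to 0.966) and 0.805 over the 22 without a peak (0.271 to 0.963). The median GC content was 59.7% and 60.6%, respectively. The 6 genes with both peaks fell in a narrower range, with ratios of 0.641 to 0.868 and GC contents of 52.4% to 59.5%. Of the 5 genes outside the CpG-rich class, NUP43 (GC content 49.4%) and TNPO2 (ratio 0.483) had a PHF20 peak, and NUP210L, KPNA7 and IPO5 had none.

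**Figure D2:**
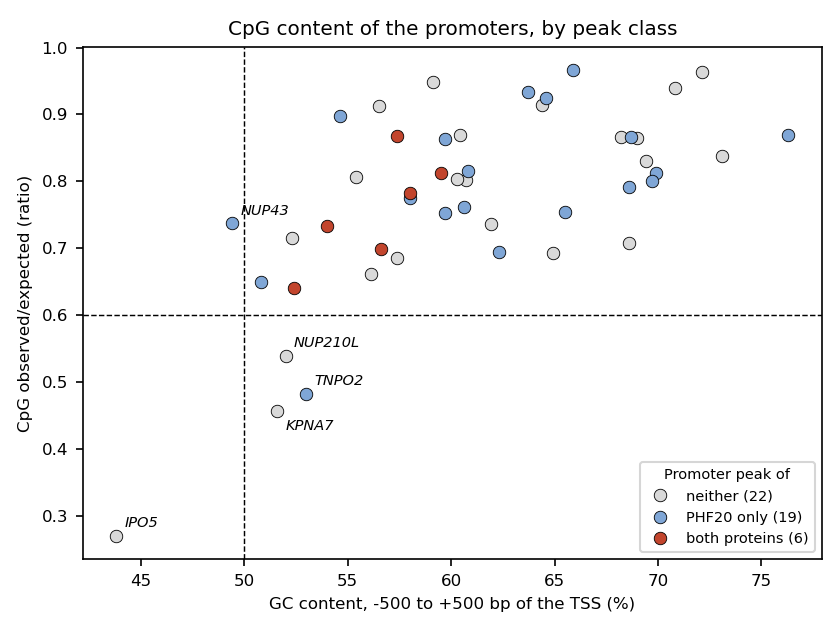
CpG observed/expected ratio (y axis) against GC content in percent (x axis) of the 47 promoters, 1 point per gene, coloured by peak class, with dashed lines at the limits of 50% and 0.6. Bound and unbound genes overlap over most of the range, and the 5 genes outside the CpG-rich class are named.

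At the Y complex genes the PHF20 peaks were wide and lay across the start. NUP37 had the widest PHF20 peak of the set, 1168 bp on chromosome 12 from 102119513 to 102120680, at percentile 91.6 of all PHF20 peak widths. It also covered the promoter of PARPBP, whose canonical TSS lies 69 bp away on the other strand, so the peak cannot be given to either gene alone. At NUP160 the peak was 1158 bp wide, on chromosome 11 from 47847865 to 47849022. At NUP107 it was 949 bp wide, from 68686428 to 68687376 on chromosome 12, and held a PHF20L1 peak of 254 bp from 68686973 to 68687226. At NUP133 the PHF20 peak of 874 bp, from 229507854 to 229508727 on chromosome 1, held the widest PHF20L1 peak of the set, 428 bp from 229508093 to 229508520. NUP43 had a PHF20 peak of 758 bp. All 5 peaks exceeded 599 bp, the median width of the PHF20 list, and all 5 covered the canonical TSS.

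In the inner ring, the scaffold gene NUP155 had a PHF20 peak of 1097 bp, on chromosome 5 from 37370592 to 37371688. Inside it was the narrowest PHF20L1 peak of the set, 219 bp from 37370905 to 37371123, at percentile 10.8 of PHF20L1 widths. NUP205 had a PHF20 peak of 631 bp. Its paralog NUP188 had one of 271 bp on chromosome 9, from 128947978 to 128948248, which began 279 bp downstream of the canonical TSS and was also counted for DOLK, a gene that starts 96 bp away on the other strand. NUP155 and NUP205 peaks thus crossed the start, and the NUP188 peak did not.

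The channel genes had PHF20 peaks of 861 bp at NUP54, 477 bp at NUP58 and 358 bp at NUP62. The NUP62 peak, from 49929151 to 49929508 on chromosome 19, also lay in promoter windows of IL4I1 and ATF5. On the cytoplasmic side, NUP42 had a PHF20 peak of 1034 bp on chromosome 7 from 23181495 to 23182528. NUP214, the scaffold of the cytoplasmic filaments, had a PHF20 peak of 881 bp on chromosome 9 from 131125321 to 131126201 and within it a PHF20L1 peak of 374 bp from 131125519 to 131125892. NUP210 had the narrowest PHF20 peak of the set, 218 bp on chromosome 3 from 13419924 to 13420141, which was centred in an intron and ended 398 bp past the start.

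**Figure D3:**
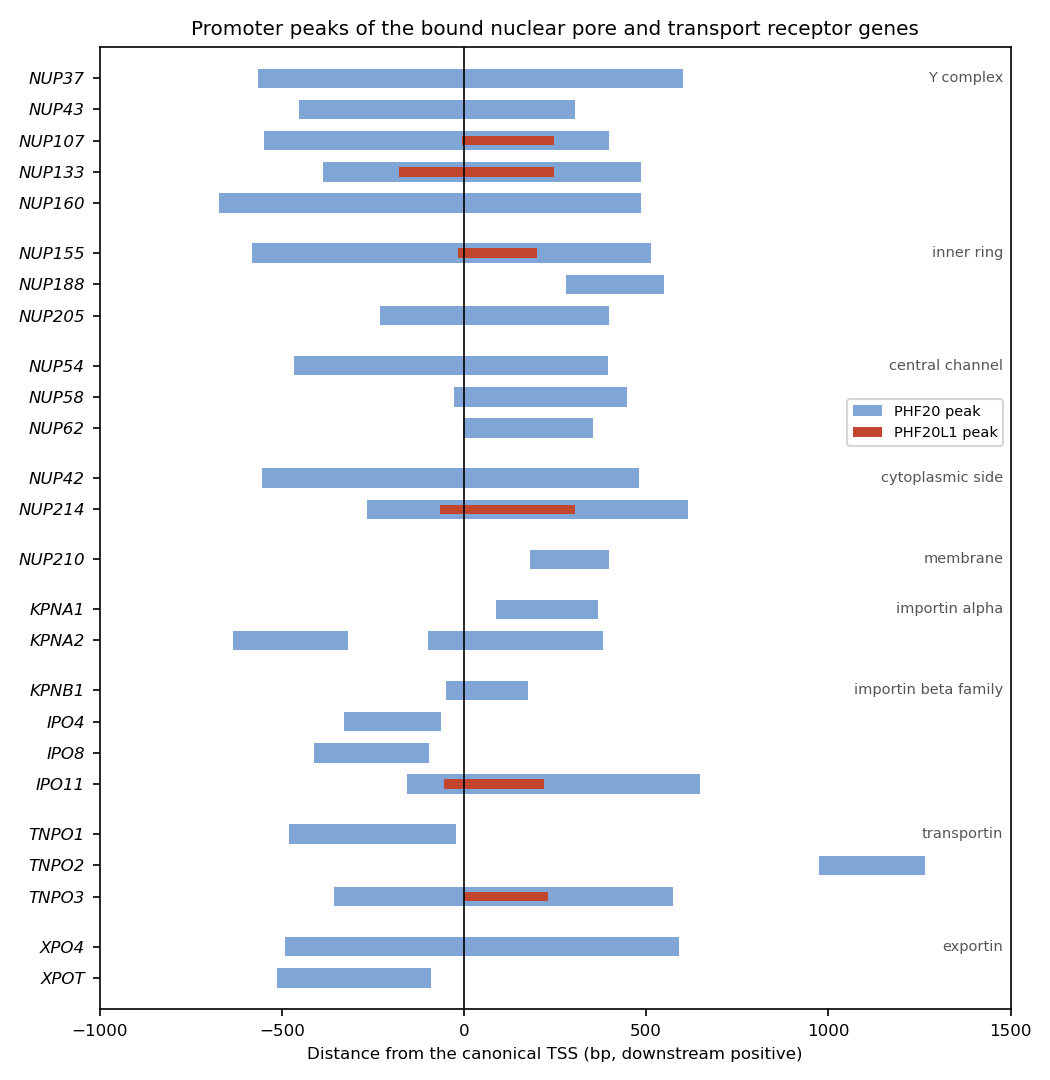
Position of each promoter peak of the 25 bound genes relative to the canonical TSS (x axis, bp, downstream positive), with wide bars for PHF20 peaks and narrow bars for PHF20L1 peaks. Each of the 6 PHF20L1 peaks lies inside a PHF20 peak, and 17 of the 26 PHF20 peaks cross the start. Of all PHF20L1 peaks at coding promoters, 96.6% overlap a PHF20 peak.

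Most transport receptor genes had narrower peaks, with 3 exceptions. XPO4 had a PHF20 peak of 1084 bp on chromosome 13 from 20902155 to 20903238. TNPO3 had a PHF20 peak of 932 bp on chromosome 7 from 129054537 to 129055468, with a PHF20L1 peak of 231 bp from 129054880 to 129055110 that began 1 bp downstream of the start. IPO11 had a PHF20 peak of 806 bp on chromosome 5 from 62412607 to 62413412, with a PHF20L1 peak of 275 bp from 62412709 to 62412983. The other 9 peaks were 225 to 480 bp wide. The narrowest were those of KPNB1 (225 bp, on chromosome 17 from 47649870 to 47650094), IPO4 (269 bp, on chromosome 14 from 24188878 to 24189146) and KPNA1 (283 bp, on chromosome 3 from 122514570 to 122514852). KPNA2 was the gene with more than 1 PHF20 peak, 318 bp and 480 bp wide on chromosome 17, the first ending 317 bp upstream of the start and the second crossing it. At TNPO2 the peak of 294 bp lay 973 to 1266 bp downstream of the canonical TSS, centred in an intron, and was counted through another annotated start. With canonical starts alone TNPO2 was not bound.

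The 14 PHF20 peaks at NUP genes had a median width of 867.5 bp (218 to 1168 bp), and 10 of 14 were wider than the list median of 599 bp. For the 12 peaks at transport receptor genes the median was 370.5 bp (225 to 1084 bp), and 3 of 12 were wider than 599 bp. Over all 3562 PHF20 peaks at promoters of protein-coding genes the median was 635 bp, and 53.5% exceeded 599 bp. The widths of NUP and receptor peaks overlapped from 225 to 1084 bp. The peaks of the set as a whole (median 555.5 bp) were close to the background, with the NUP genes above and the receptor genes below it. The difference in width was not tested. The PHF20L1 peaks, with a median of 264.5 bp over 6, lay below the 323 bp of all PHF20L1 peaks at coding promoters. Of the 6, 4 were under 300 bp wide, and a limit of 300 bp leaves those of NUP133 and NUP214. The narrowest peaks in both lists were 200 bp wide. The PHF20L1 peaks of NUP155 and TNPO3 and the PHF20 peaks of NUP210 and KPNB1 thus lay near the lower limit.

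**Figure D4:**
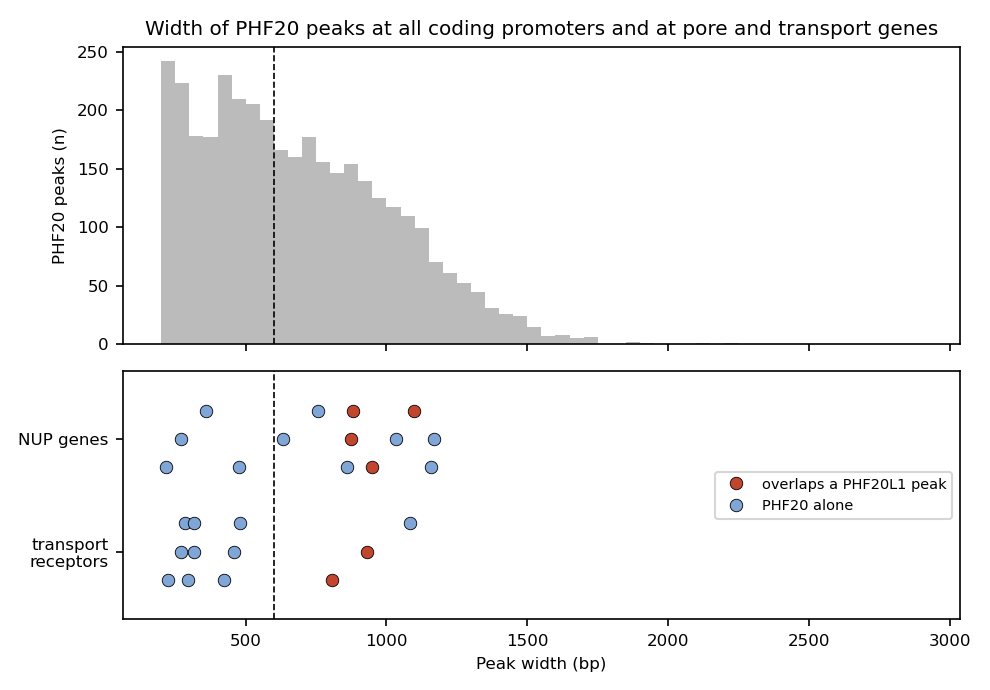
Widths in bp of all 3562 PHF20 peaks at coding promoters (top, number of peaks per 50 bp) and of the 26 PHF20 peaks at the genes described here (bottom, 1 point per peak, spread vertically for legibility), with a dashed line at the list median of 599 bp. Peaks at NUP genes reach 1168 bp, and those that overlap a PHF20L1 peak lie between 806 and 1097 bp.

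In this set, PHF20L1 peaks were found at wide PHF20 peaks, but the widest, at NUP37 and NUP160, had none. Over all coding genes bound by both proteins, PHF20 peaks had a median width of 946 bp and a maximum of 2207 bp. Over those bound by PHF20 only, these were 574 bp and 1905 bp. The 6 PHF20 peaks that overlapped a PHF20L1 peak were 806 to 1097 bp wide. Of the 11 PHF20 peaks of at least 806 bp, 6 overlapped a PHF20L1 peak (54.5%), and of the 15 narrower ones none did. At coding promoters in general the shares were 33.4% of 1225 peaks and 7.62% of 2337. The limit of 806 bp is the width of the narrowest of the 6 peaks, so in the set no narrower peak could overlap a PHF20L1 peak. The limit was not fitted to the coding promoters in general. The shares are therefore not like for like and serve as a description. The 5 wide peaks without PHF20L1 were those of NUP37 (1168 bp), NUP160 (1158 bp), XPO4 (1084 bp), NUP42 (1034 bp) and NUP54 (861 bp). NUP37 and NUP160 thus exceeded every gene of the set that carried both proteins.

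With respect to the start, PHF20 peaks covered the canonical TSS in 17 of 26 cases (65.4%), beside 60.3% of all gene and peak pairs at coding promoters. The count was 12 of 14 at NUP genes and 5 of 12 at receptor genes. The peaks of IPO4, IPO8, TNPO1 and XPOT and the first peak of KPNA2 lay wholly upstream of the start, whereas those of NUP188, NUP210, KPNA1 and TNPO2 lay wholly downstream. The 6 PHF20L1 peaks were all centred downstream, at 121 bp for NUP107, 35 bp for NUP133, 92 bp for NUP155, 119 bp for NUP214, 83 bp for IPO11 and 116 bp for TNPO3. Over all PHF20L1 peaks at coding promoters, 40.5% of gene and peak pairs had a centre downstream of the canonical TSS. Those are 780 pairs from 615 peaks, so a peak shared by several genes counts more than once. The 6 peaks of the set each belonged to 1 coding gene, and the 2 groups are thus unlike. The annotation placed the centres of the 6 peaks in an exon at NUP133, NUP155, NUP214, IPO11 and TNPO3 and in an intron at NUP107. The PHF20 peaks of these genes were centred downstream in 4 of 6 cases, at 246 bp for IPO11, 175 bp for NUP214, 109 bp for TNPO3 and 51 bp for NUP133, and upstream at NUP155 and NUP107, at -34 and -76 bp.

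A divergent partner, a coding gene on the other strand whose canonical TSS lies within 1000 bp upstream, was found for 5 of the 47 genes (10.6%, beside 9.56% of all genes). Of all genes with such a partner, 46.3% were bound by PHF20 and 9.86% by PHF20L1. In the set, NUP37 and NUP188 were bound, and NUP88 (520 bp from RPAIN), XPO5 (147 bp from POLH, a DNA polymerase for damaged templates) and NUP62CL (178 bp from DNAAF6) were not. None of the 6 genes with both peaks had a divergent coding partner, and their peaks were in the promoter window of no other coding gene.

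Exact letters of 6 motifs with at least 8 letters were searched on both strands within 500 bp on either side of the canonical TSS: ACTTCCGG for ETS factors, CACGTGAC for E-box factors, TGACGTCA for CREB-type factors, GCATGCGC for NRF1, TCGCGAGA for ZBTB33-type sites and AAGATGGCG for YY1. At least 1 of them was present at 25 of the 47 genes (53.2%) and at 24.4% of all coding genes. The count was 15 of 25 PHF20-bound genes (60%), beside 45.1% of all PHF20-bound coding genes, and 10 of 22 genes without a peak (45.5%). ACTTCCGG was present at NUP160, NUP54, NUP58, IPO4 and TNPO3 among the bound genes (20.0%, beside 20.3% of all PHF20-bound genes and 7.95% of all coding genes) and at NUP35 and XPO6 among the others. Of the 6 genes with both peaks, TNPO3 held it, whereas 27.7% of all PHF20L1-bound genes did. The ETS letters lay inside the PHF20 peak at NUP160, NUP54 and TNPO3, and outside it at NUP58 and IPO4. CACGTGAC occurred at NUP188, outside its PHF20 peak, and at the unbound KPNA3 (4.26%, beside 4.6% of all coding genes). The PHF20 peak of TNPO2, beyond the searched window, held CACGTGAC read on both strands of 1 site, 1188 and 1190 bp downstream of the canonical TSS.

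The CRE letters TGACGTCA were present at 6 of the 47 genes (12.8%), beside 3.51% of all coding genes. These were NUP133, NUP214 and NUP42, all bound, and NUP98, NUP210L and IPO5, all unbound. In the sequences printed above, the site was centred 18 bp before the start at NUP133 and 24 bp before it at NUP214, inside the PHF20L1 peak in both. In RefSeq promoters of the printed length, 1.85% of 35116 held these letters. The NRF1 letters were present at 5 genes (10.6%, beside 6.25%), namely NUP107, NUP62, IPO11, XPO4 and the unbound NUP50. At NUP107 the match is read on both strands of the same site, about 80 bp before the start, and at IPO11 it lay 39 bp before the start, with 3.05% of RefSeq promoters holding it. The TNPO3 sequence carries its ETS match 109 bp before the start (4.14% of RefSeq promoters), and KPNA3 its E-box match 64 bp before it (2.40%). The YY1 letters were present at 6 genes (12.8%, beside 4.37%), of which NUP160, NUP188 and NUP205 were bound and NUP88, KPNA5 and IPO9 were not. TCGCGAGA was found at KPNA2 alone (2.13%, beside 2.42%). The CRE letters of NUP42, the NRF1 letters of NUP107, IPO11 and XPO4 and the YY1 letters of NUP160 and NUP205 lay inside the PHF20 peak of the gene. The NRF1 letters of NUP62, the YY1 letters of NUP188 and the TCGCGAGA of KPNA2 lay outside it. Inside the PHF20L1 peaks, besides the CRE letters of NUP133 and NUP214, were the NRF1 letters of IPO11, while the matches of NUP107 and TNPO3 were outside. The shorter GC box GGGCGG was present at 41 of the 47 genes (87.2%, beside 76.9%) and CCAAT at 36 (76.6%, beside 63.8%). Among PHF20-bound genes the GC box was less frequent in the set (80.0%) than over all coding genes (91.5%), and CCAAT more so (68.0% and 60.7%). Of the 22 genes without a peak, 95.5% held the GC box and 86.4% CCAAT. The promoters of NUP155 and NUP37 held none of the longer motifs although both had wide PHF20 peaks. No match says that a factor bound there, and its absence says only that these letters were not in the window.

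None of the 22 unbound genes had a peak of either protein elsewhere in the gene. The nearest PHF20 peak to a start was 12364 bp away at KPNA5, in the promoter of ZUP1, then 19801 bp at IPO7 and 27932 bp at IPO13, in the promoter of ATP6V0B. At the far end, NUP62CL on the X chromosome was 2330365 bp from the nearest PHF20 peak. The distances were 55333 bp for NUP85, 45264 bp for NUP35, 201395 bp for NUP93, 48930 bp for NUP88, 145107 bp for NUP50, 415535 bp for NUP153 and 65892 bp for NUP210L. For NUP98 the nearest peak was one of PHF20L1, 44013 bp away at RHOG, whereas the nearest PHF20 peak was 296712 bp away. Among the receptors, they were 66530 bp for XPO1, 58395 bp for XPO5, 279809 bp for XPO6, 129008 bp for XPO7, 153549 bp for IPO9 and 623749 bp for IPO5. KPNA3, KPNA4, KPNA6 and KPNA7 lay 206501, 539127, 35339 and 117469 bp from one. Widening the promoter window to 2500 bp on either side therefore added no gene.

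A list of 25 further pore and transport genes that the symbol rule leaves out had 13 bound by PHF20 (52.0%) and 2 by PHF20L1 (8%). It too was chosen with earlier results of these data known. Of these genes 92.0% had a CpG-rich promoter, and of all CpG-rich coding genes PHF20 bound 28.9% and PHF20L1 5.24%. Pore genes of this list with a PHF20 peak were RANBP2, the large cytoplasmic filament protein (1061 bp), POM121 (889 bp), RAE1 (850 bp), SEC13 (695 bp), GLE1 (584 bp) and AAAS (444 bp). SEH1L and AHCTF1, which belong to the Y complex or join it to chromatin, and TPR, NDC1 and POM121C were not bound. Since uniquely mapped reads were kept, peaks at near-identical copies such as POM121 and POM121C are uncertain. Of the transport genes, CSE1L, which returns importin alpha to the cytoplasm, had a PHF20 peak of 805 bp, and RAN one of 429 bp. RANBP17 (296 bp) and NXT2 (235 bp) were also bound. RCC1 and RANGAP1, the exchange factor and GTPase activator of RAN, were not, nor were RANBP3, NUTF2, NXF1, NXT1 and SNUPN. DDX19A, a DEAD-box RNA helicase, had a PHF20 peak of 1131 bp and a PHF20L1 peak of 223 bp across the canonical start. Its neighbour DDX19B had PHF20 peaks of 520 bp at its start and 241 bp at another annotated start far upstream, from position -10029 to -9789 relative to the canonical TSS, which was also counted for AARS1. RANBP1, a RAN-binding protein, had a PHF20 peak of 1138 bp and a PHF20L1 peak of 308 bp that also lay in the promoter window of TRMT2A. They were 830 and 1124 bp downstream of the canonical TSS of RANBP1 at their nearest, and with canonical starts alone RANBP1 was not bound.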

How the data were processed

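The deposited values are genomic positions (start and end, in bp) of the final HA ChIP-Seq peaks of PHF20 and PHF20L1 in U2OS cells, with no height, score or read count. To make them, the authors aligned the reads with Bowtie 1.1.2 (hg38), retained unique and deduplicated reads and called peaks with MACS2 2.2.7.1 against input with an extension of 200 bp. They removed blacklisted regions and kept peaks of the best replicate that overlapped those of the others. A PHF20 replicate had been removed by them. The depth of each library is unknown from these lists, and no column of per-sample values was present.

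Genes and TSSs came from GENCODE release 44, genes of the mitochondrial genome left out, and sequences from hg38 and RefSeq. The authors used an earlier release. Peaks were counted by any overlap with the window, checked on simulated peaks. Python 3.11.15, pysam 0.24.0, scipy 1.17.1 and matplotlib 3.10.9 were used. No test was run, since each list gives 1 set of positions per protein and no value per replicate. The genes, roles, motifs and the list of other pathway genes were chosen with earlier results of these data known. ACTTCCGG and CACGTGAC were among sequences those results had pointed to. Every gene that meets the symbol rule is named. Positions are given for those with PHF20L1 peaks and for the widest and narrowest PHF20 peaks. Alternatives were other windows, TSS sets, peak widths, overlaps, CpG limits and motif windows.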

Additional observations from a re-analysis of the deposited data

How the results depend on the processing

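The counts of 25 PHF20-bound and 6 PHF20L1-bound genes were the same with peak centres in place of any overlap and with windows of 500 or 2500 bp on either side of the start. Canonical starts alone left 24 and 6. Peak width mattered more. With peaks of at least 300 bp, 19 genes were bound by PHF20, and 2 by PHF20L1 and by both, beside 18.6% and 2.27% of all coding genes. Of the other pathway genes PHF20L1 then bound 1. With only the peaks at or above the median width of each list, 13 genes were bound by PHF20 and 2 by PHF20L1 and by both, beside 12.1% and 2.11%, and in the other pathway list 7 and 0. Canonical starts alone gave 19.1% and 3.47% of all coding genes and 1 other pathway gene for PHF20L1, and the window of 2500 bp gave 21.4% for PHF20. Restricting all genes to those with 10 or more TSSs, chosen after seeing the data, gave 30.1% and 5.76%. An overlap of at least 50% of both peaks left 0 of the 6 shared PHF20 peaks, since the PHF20L1 peaks are much narrower. In all, 44 of 63 alternative values stayed within 1.5 times (counts) or within the 95% interval (Wilson for percentages, order statistics for medians). The other 19 moved. For the median of the 6 PHF20L1 widths this interval was their whole range, 219 to 428 bp.

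No paired analysis was possible because each protein has 1 list, of best-replicate peaks that overlapped those of the other replicates, and leaving out a replicate was not possible either. The depth of the libraries is unknown from positions alone.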
